A study of Cavia porcellus with 12 samples.

Results

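The mitochondrial solute carriers of the SLC25 family were examined in the livers of guinea pigs with nonalcoholic steatohepatitis (NASH) and of controls. Members were all symbols that begin with SLC25A and a number in the deposited table of symbols, except *SLC25A20*, together with *UCP2*, which belongs to the same family under another name. The rule itself reads names only, but it was chosen with earlier results of these data known. The symbols are those of genes with at least 200 counts in total. The rule found 40 members among 11896 symbols, and these rested on 39 rows of the count table because *SLC25A51* and *SLC25A52* stood on 1 row. A further 8 human genes with names of this form had no symbol in the table and were not analysed here, namely *SLC25A2*, *SLC25A6*, *SLC25A10*, *SLC25A31*, *SLC25A41*, *SLC25A42*, *SLC25A44* and *SLC25A48*. The family relatives *UCP1* and *UCP3* lie outside the rule and had no symbol in it either.

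Liver RNA was sequenced from 12 female guinea pigs of the Dunkin Hartley strain, 1 library per animal. The 6 controls (animals 5, 10, 31, 32, 45 and 56) had eaten chow for 25 weeks, and the 6 guinea pigs with NASH (animals 2, 9, 11, 20, 41 and 65) had eaten a high-fat diet with added sucrose and cholesterol for as long. The high-fat animals were selected for bridging fibrosis from a larger experiment, so diet and disease stage cannot be told apart. Livers were not perfused, and the pieces came from the left lateral lobe.

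Members of this family are small proteins of the inner mitochondrial membrane, and most exchange a metabolite of the matrix for another in the space outside it. They are made in the cytosol, imported through the outer membrane and handed to the inner membrane by a dedicated set of chaperones and a translocase. In hepatocytes they connect the citric acid cycle and the respiratory chain with glucose production, the urea cycle, fatty acid synthesis and the transfer of reducing equivalents. Some members have left the inner membrane: *SLC25A17* lies in peroxisomes and *SLC25A46* in the outer mitochondrial membrane.

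Values are CPM, read counts divided by the size of the library, here with library sizes scaled by the trimmed mean of M values (TMM), a method that sets the scale by the bulk of the genes. Library totals lay between 16980274 and 28636467 counts in controls and between 23704607 and 33091460 in NASH. The TMM factors did not overlap, at 0.804 to 0.875 in controls and 1.116 to 1.241 in NASH, so the scaling itself moves with the groups. Without the factors, on library size alone, log2 fold changes of the members stood 0.45 to 0.49 higher and the median of all genes was 0.48. Hepatocyte markers summed to between 103000 and 124000 CPM in controls and between 43800 and 66800 CPM in NASH, and 7 of the 8 measured were lower and 0 higher by the test described below (3 lower and 1 higher without the factors). Stellate cell markers summed to 731 to 873 CPM in controls and 1600 to 3240 CPM in NASH (8 of 10 higher, 1 lower), and cholangiocyte markers to 93.2 to 142 and 331 to 580 CPM (5 of 6 higher). Of the T cell markers 1 of 6 was higher and 1 lower, and of the endothelial markers 3 of 7 were higher and 1 lower. Erythroid markers ran from 58.3 to 173 CPM in controls and from 431 to 4560 CPM in NASH (5 of 5 higher). In bulk liver, fewer cells of a type and less RNA per cell cannot be told apart, and the part of these markers in the carrier results was not tested.

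By edgeR's quasi-likelihood test over all 11896 symbols, with Benjamini-Hochberg adjusted p under 0.05 (q), 21 of the 40 carriers differed between NASH and control livers. Of these, 8 were higher in NASH and 13 were lower. Over all symbols, 53.9% differed, with 27.9% higher and 26.0% lower, so the carriers were called about as often as the other genes. Their median log2 fold change was -0.07 and that of all symbols 0.01. The CPM ranges of the groups did not overlap for 13 carriers, 5 with NASH above the controls and 8 below, where library size alone gave 14 above and 4 below. The share of all symbols without overlap was not counted on library size alone, so these 14 and 4 are not read as a trait of the carriers. Across all symbols 33.7% did not overlap with TMM, 18.4% with NASH above and 15.3% below. The changes ran in both directions, from a log2 fold change of -2.49 for *SLC25A25* to 1.63 for *UCP2*.

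**Figure D1:**
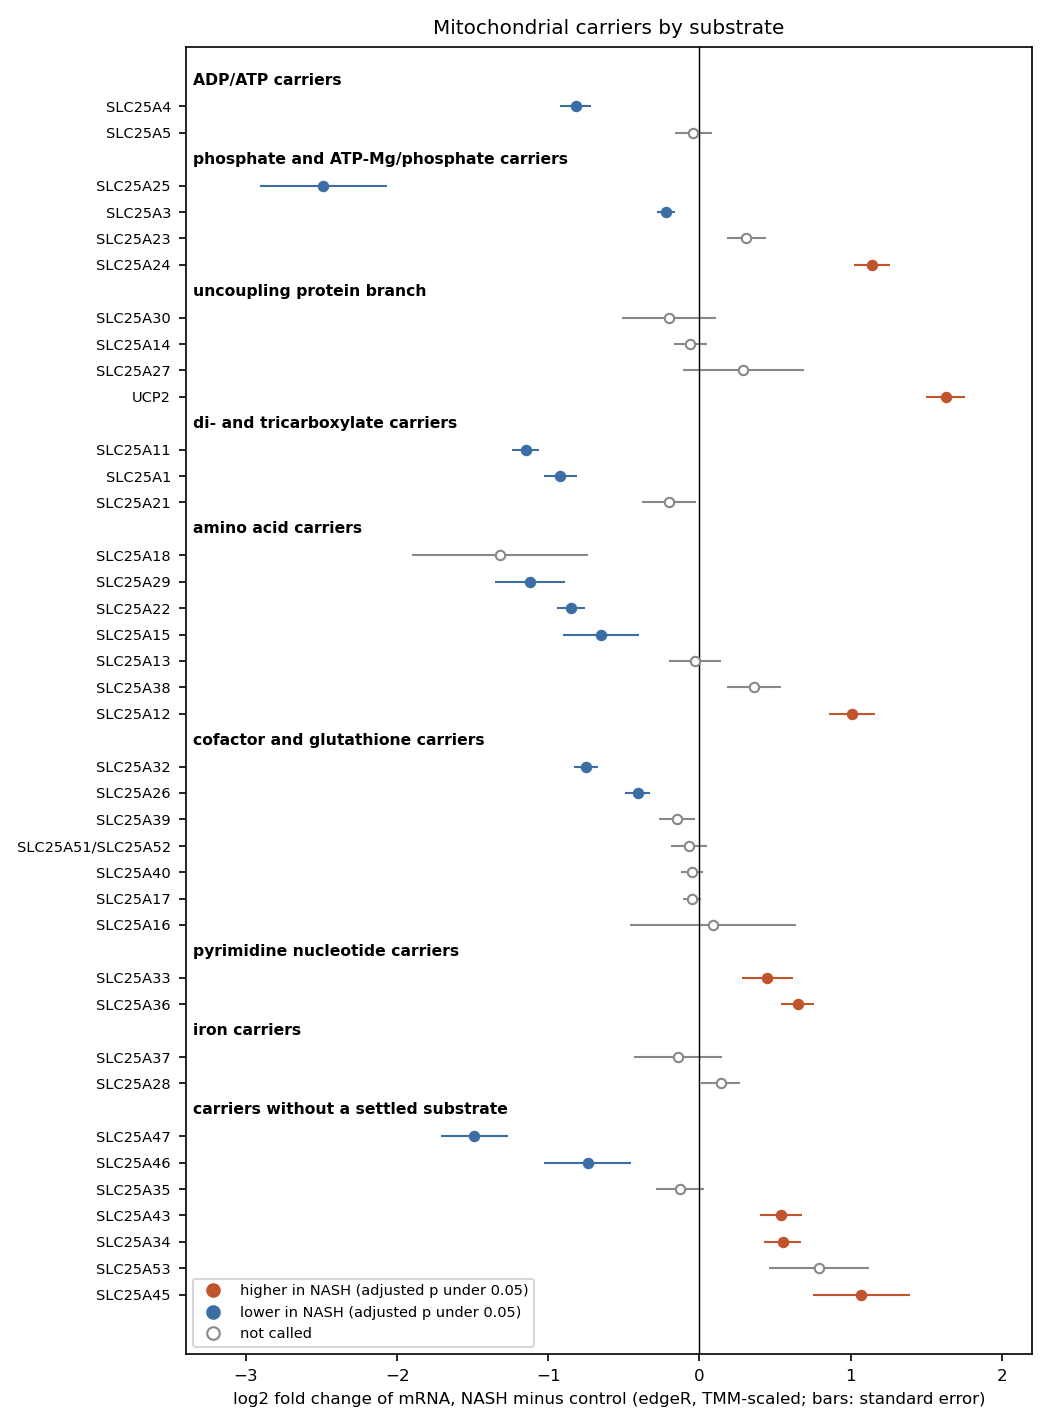
Log2 fold change (NASH minus control) of the carriers named in the text, with standard errors, grouped by substrate, from edgeR's quasi-likelihood test on 6 NASH and 6 control livers; filled points have an adjusted p under 0.05. *UCP2* stands at 1.63 and *SLC25A25* at -2.49, and higher and lower carriers occur side by side within several groups.

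The scale matters for the small differences. On library size alone 21 carriers were higher and 8 were lower, where 63.9% of all symbols were higher and 7.66% lower. All 8 carriers that were higher under TMM remained higher. Among the 13 that were lower, 8 remained lower (*SLC25A1*, *SLC25A4*, *SLC25A11*, *SLC25A22*, *SLC25A25*, *SLC25A29*, *SLC25A32* and *SLC25A47*), *SLC25A15* and *SLC25A46* were lower without passing the test, *SLC25A3* turned higher and passed it, and *SLC25A26* turned higher without passing it. Of the carriers described below as lower without overlap, *SLC25A11*, *SLC25A22*, *SLC25A32* and *SLC25A47* kept the separation without the factors, and *SLC25A1*, *SLC25A4*, *SLC25A26* and *SLC25A29* overlapped there.

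**Figure D2:**
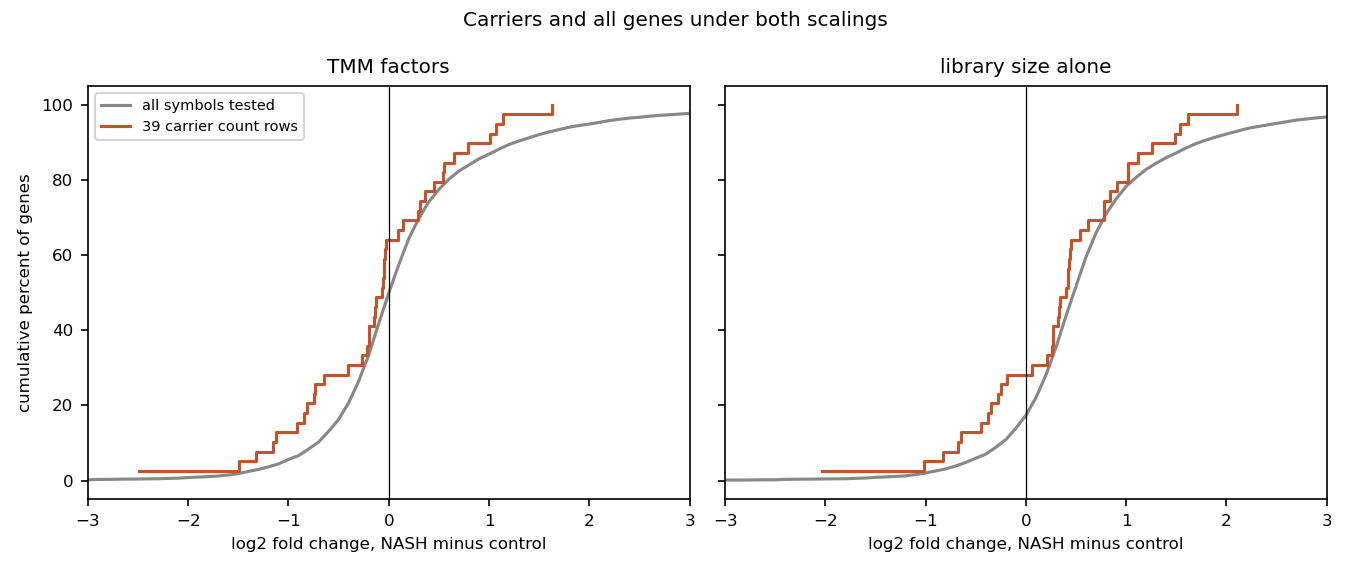
Cumulative percentage of all symbols and of the 39 carrier rows against log2 fold change (NASH minus control), with TMM scaling and on library size alone. The median of the carriers moves from -0.07 to 0.40 and that of all symbols from 0.01 to 0.48, so the carriers and the other genes shift together.

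The ADP/ATP carriers bring ADP into the matrix and release the ATP made there. *SLC25A4* (adenine nucleotide translocase 1) lay between 358 and 456 CPM in controls (median 394) and between 176 and 275 CPM in NASH (median 228). All NASH livers were below all controls with TMM, and the log2 fold change was -0.82 (SE 0.10, q = 2.69e-05). The groups overlapped on library size alone, where the log2 fold change was -0.35 (q = 0.00530). *SLC25A5*, the isoform linked to dividing cells, had a mean of 33.7 ± 5.88 CPM (SD, n = 6) in controls and 32.8 ± 3.50 CPM in NASH. Its log2 fold change was -0.04 (SE 0.12, q = 0.798), and on library size alone it was 0.44. Markers of dividing cells were higher in NASH for 5 of 6 genes, from a log2 fold change of 2.42 for *MCM2* to 5.27 for *BUB1*. Their summed level, 93.4 to 125 CPM in controls and 116 to 216 CPM in NASH, was mostly that of *PCNA*, which was at -0.03 (q = 0.785) on a row shared with *TMEM230*.

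Phosphate enters the matrix through *SLC25A3*, the phosphate carrier used by ATP synthase. Its mean was 230 ± 16.4 CPM in controls and 198 ± 8.50 CPM in NASH, and its log2 fold change was -0.22 (SE 0.06, q = 0.0108) with TMM and 0.26 on library size alone. The calcium-regulated ATP-Mg/phosphate carriers set the total amount of adenine nucleotides in the matrix, and of the 3 measured isoforms 1 was higher and 1 was lower. *SLC25A24* lay between 17.5 and 24.4 CPM in controls (median 20.2) and between 37.4 and 55.4 CPM in NASH (median 44.6). All NASH livers were above all controls, and the log2 fold change was 1.14 (SE 0.12, q = 6.34e-06).

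*SLC25A25* had 164, 380, 62.6, 286, 269 and 392 CPM in control animals 5, 10, 31, 32, 45 and 56. It had 21.7, 78.4, 33.8, 42.2, 52.3 and 48.1 CPM in NASH animals 2, 9, 11, 20, 41 and 65. The groups overlapped only because control 31 was below NASH animal 9. The log2 fold change was -2.49 (SE 0.42, q = 0.000277), and it was -2.69 without control 31. *SLC25A23* had a mean of 7.26 ± 1.58 CPM in controls and 9.01 ± 0.820 CPM in NASH, with a log2 fold change of 0.31 (SE 0.13, q = 0.0709) that did not pass the test. It passed on library size alone (0.78, q = 0.000326).

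In the uncoupling protein branch, 1 of 4 members differed, beside 53.9% of all symbols. *UCP2* exports short dicarboxylic acids from the matrix and is known for its expression in macrophages and other cells outside the parenchyma. It lay between 15.4 and 27.4 CPM in controls (median 19.4) and between 53.2 and 73.0 CPM in NASH (median 59.7). Every NASH liver was above every control, and the log2 fold change was 1.63 (SE 0.13, q = 7.43e-07). Macrophage markers summed to 389 to 653 CPM in controls and 579 to 776 CPM in NASH, and of the 7 measured 1 was higher and 1 lower. Without the factors 5 were higher and 1 was lower, and the sums did not overlap, at 313 to 572 CPM in controls and 672 to 919 CPM in NASH.

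*SLC25A14*, *SLC25A27* and *SLC25A30*, relatives of the uncoupling proteins with less settled roles, did not pass the test. *SLC25A30* was the most scattered of these in controls, from 30.7 to 138 CPM against 55.0 to 109 CPM in NASH, with a log2 fold change of -0.20 (SE 0.31, q = 0.613). *SLC25A14* had a log2 fold change of -0.06 (SE 0.11, q = 0.662), and both turned positive on library size alone (0.27 and 0.42). *SLC25A27* was near the limit of the data, with 10 to 20 counts per control library and 11 to 66 per NASH library, and its log2 fold change was 0.29 (SE 0.40, q = 0.563).

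The citrate and 2-oxoglutarate carriers were both lower. *SLC25A1* exports citrate, the source of cytosolic acetyl-CoA for fatty acid and sterol synthesis. It lay between 126 and 187 CPM in controls (median 161) and between 70.1 and 105 CPM in NASH (median 84.4), without overlap with TMM, and the log2 fold change was -0.92 (SE 0.11, q = 1.94e-05). The groups overlapped on library size alone, at a log2 fold change of -0.45 (q = 0.00209). *SLC25A11* exchanges 2-oxoglutarate for malate in the malate-aspartate shuttle, which carries reducing equivalents from cytosolic NADH into the matrix. It fell from between 108 and 140 CPM in controls (median 121) to between 48.5 and 61.9 CPM in NASH (median 53.7), with no overlap and a log2 fold change of -1.15 (SE 0.09, q = 4.43e-07). *SLC25A21*, the oxoadipate carrier of lysine and tryptophan breakdown, had a mean of 4.49 ± 0.887 CPM in controls and 3.90 ± 0.948 CPM in NASH (log2 fold change -0.20, SE 0.18, q = 0.379).

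**Figure D3:**
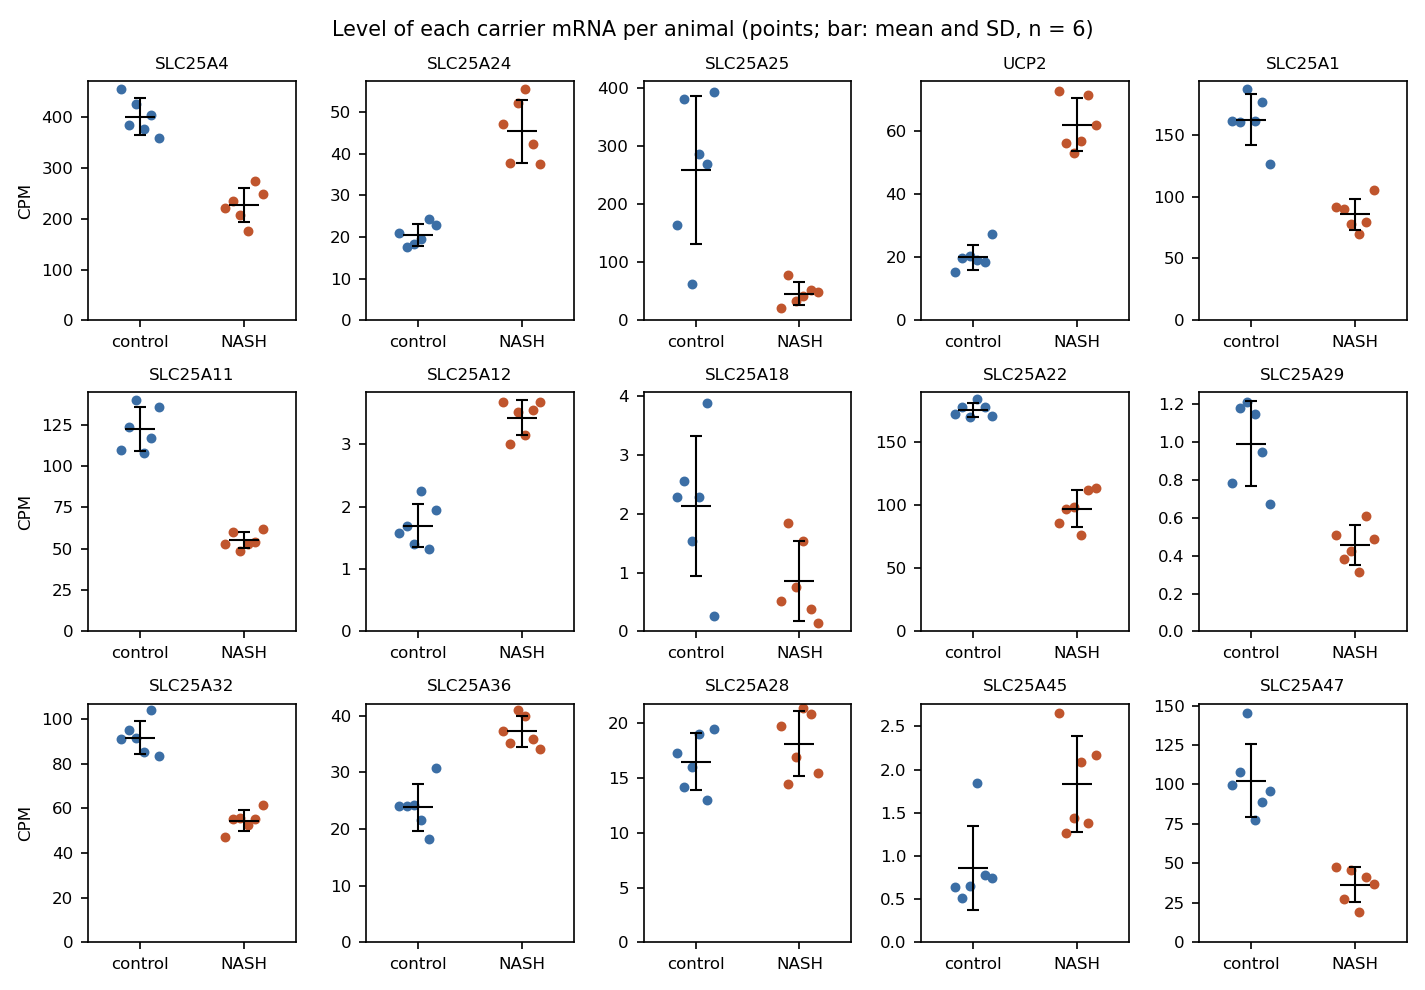
CPM (linear axis from 0, its own for each gene) of the 15 carriers described in most detail, as 1 point for each of the 6 control and 6 NASH livers, with the group mean and SD. *SLC25A4*, *SLC25A1*, *SLC25A11*, *SLC25A22*, *SLC25A29*, *SLC25A32* and *SLC25A47* lie below the controls in every NASH liver on this TMM scale (*SLC25A1*, *SLC25A4* and *SLC25A29* overlap on library size alone), *SLC25A24*, *UCP2*, *SLC25A12* and *SLC25A36* lie above them, and the groups overlap for *SLC25A25*, *SLC25A18*, *SLC25A28* and *SLC25A45*.

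Of the 7 amino acid carriers in the table, 1 was higher and 3 were lower, beside 27.9% and 26.0% of all symbols. The aspartate/glutamate carriers are the other arm of the malate-aspartate shuttle. *SLC25A12* (aralar), the isoform of brain and muscle, was low in both groups, at 1.32 to 2.25 CPM in controls (median 1.63, 22 to 49 counts per library) and 3.01 to 3.68 CPM in NASH (median 3.53, 101 to 139 counts). Again no NASH liver reached down to the controls, and the log2 fold change was 1.01 (SE 0.15, q = 0.000112). *SLC25A13* (citrin), the liver isoform, had a mean of 185 ± 49.8 CPM in controls and 182 ± 11.2 CPM in NASH (log2 fold change -0.03, SE 0.17, q = 0.912). Control 56 had 92.4 CPM, and the other controls had 167 to 228 CPM.

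*SLC25A22* imports glutamate. It had 170 to 184 CPM in controls (median 175), the narrowest control range relative to its level among the carriers described here, and 76.8 to 114 CPM in NASH (median 97.9). The groups did not overlap, and the log2 fold change was -0.85 (SE 0.09, q = 8.01e-06). Its relative *SLC25A18* had 0.269 to 3.87 CPM in controls (median 2.29) and 0.140 to 1.84 CPM in NASH (median 0.632), with 4 counts in the lowest library of each group. The groups overlapped, and the log2 fold change of -1.32 (SE 0.58, q = 0.0735) did not pass the test, although it did with DESeq2 (-1.31, q = 0.0477).

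*SLC25A15* exchanges ornithine for citrulline in the urea cycle. Its mean was 119 ± 45.1 CPM in controls and 75.7 ± 23.8 CPM in NASH (log2 fold change -0.65, SE 0.25, q = 0.0456). The call was lost in 6 of the 12 fits that left out an animal (control 10 or 56, or NASH animal 2, 9, 11 or 20), where the log2 fold change was -0.64 to -0.50 and q was 0.0778 to 0.110. *SLC25A29*, a carrier of arginine and lysine, had 0.673 to 1.21 CPM in controls (median 1.05) and 0.312 to 0.612 CPM in NASH (median 0.458). This rested on 10 to 26 counts per control library and 10 to 24 per NASH library. The groups did not overlap with TMM but did on library size alone, and the log2 fold change was -1.12 (SE 0.23, q = 0.00133) and -0.65 (q = 0.0259) on these scales. *SLC25A38*, which brings glycine in for haem synthesis, had a log2 fold change of 0.36 (SE 0.18, q = 0.105), which passed the test on library size alone (0.84, q = 0.000838).

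Carriers of cofactors and glutathione held 9 members, of which 3 were lower and 0 were higher. Over all symbols 26.0% were lower and 27.9% higher. Without the factors 5 of the 9 were higher and 1 was lower, where 63.9% of all symbols were higher and 7.66% lower. *SLC25A32* is known as a carrier of folate and FAD. It had 83.5 to 104 CPM in controls (median 91.1) and 47.0 to 61.4 CPM in NASH (median 55.1). The groups did not overlap, and the log2 fold change was -0.75 (SE 0.08, q = 4.63e-06). This row also carried the symbol *AC012213.5*.

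*SLC25A26*, which imports S-adenosylmethionine, had a mean of 12.5 ± 1.20 CPM in controls and 9.42 ± 0.624 CPM in NASH, without overlap with TMM (log2 fold change -0.41, SE 0.08, q = 0.000855), and its log2 fold change was 0.06 on library size alone.

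*SLC25A39* and *SLC25A40*, which supply the matrix with glutathione, had log2 fold changes of -0.15 (SE 0.12, q = 0.331) and -0.05 (SE 0.07, q = 0.571). The shared row of *SLC25A51* and *SLC25A52*, the NAD carriers, had a log2 fold change of -0.07 (SE 0.12, q = 0.652). The peroxisomal *SLC25A17* had 21.7 ± 1.09 CPM in controls and 21 ± 0.905 CPM in NASH (log2 fold change -0.05, SE 0.06, q = 0.517). All of these were positive on library size alone, at 0.32 to 0.43. *SLC25A16*, a relative of the coenzyme A carrier, was scattered within both groups. Control 32 had 39.2 CPM and the other controls 6.87 to 11.2 CPM, and the NASH livers ran from 6.92 to 31.2 CPM with a median of 7.81 CPM (log2 fold change 0.09, SE 0.55, q = 0.906).

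Both pyrimidine nucleotide carriers, which feed the synthesis of mitochondrial DNA and RNA, were higher. *SLC25A36* had 18.2 to 30.8 CPM in controls (median 24.1) and 34.1 to 41 CPM in NASH (median 36.6), without overlap. Its log2 fold change was 0.65 (SE 0.11, q = 0.000249). *SLC25A33*, an insulin-responsive isoform, had 3.64 ± 0.852 CPM in controls and 4.98 ± 0.952 CPM in NASH (log2 fold change 0.45, SE 0.17, q = 0.0413). This call was lost in 7 of the 12 fits that left out an animal (control 5, 10, 31 or 56, or NASH animal 9, 41 or 65), where the log2 fold change was 0.36 to 0.46 and q was 0.0577 to 0.0979.

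The mitoferrins bring iron into the matrix for haem and iron-sulphur clusters, *SLC25A37* mainly in erythroid cells and *SLC25A28* elsewhere. *SLC25A28* had 13.0 to 19.5 CPM in controls (median 16.7) and 14.5 to 21.4 CPM in NASH (median 18.4). The groups overlapped, and the log2 fold change was 0.14 (SE 0.13, q = 0.377). It passed the test on library size alone (0.62, q = 0.00179). *SLC25A37* was scattered in both groups, at 55.6 to 132 CPM in controls and 48.8 to 142 CPM in NASH (log2 fold change -0.14, SE 0.29, q = 0.714).

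NASH animals 41 and 65 held the highest *SLC25A37* values of their group, at 142 and 140 CPM, and the other NASH livers had 48.8 to 95.1 CPM. The same animals had erythroid marker sums of 4560 and 3300 CPM, where the other NASH livers had 431 to 729 CPM. They were also the 2 highest NASH livers for *SLC25A4*, *SLC25A5*, *SLC25A13*, *SLC25A15*, *SLC25A21*, *SLC25A22*, *SLC25A33*, *SLC25A38* and *SLC25A39*, which with *SLC25A37* makes 10 of the 39 rows. NASH animals 41 and 65 also had the lowest stellate cell marker sums of their group, at 1790 and 1600 CPM. The other NASH livers had 1950 to 3240 CPM. Controls had 55.6 to 132 CPM of *SLC25A37* with erythroid marker sums of 58.3 to 173 CPM. Livers had not been cleared of blood, and the part of blood or of other cells in these values was not tested.

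Among the 7 carriers whose substrate is unsettled, 3 were higher and 2 were lower, beside 27.9% and 26.0% of all symbols. *SLC25A47*, known from liver, had 77.5 to 145 CPM in controls (median 97.8) and 19.4 to 48.0 CPM in NASH (median 39.2). Every NASH liver was below every control, and the log2 fold change was -1.49 (SE 0.22, q = 9.25e-05). *SLC25A45* had 0.513 to 1.84 CPM in controls (median 0.696, 9 to 40 counts per library) and 1.3 to 2.65 CPM in NASH (median 1.76, 43 to 78 counts). The groups overlapped through control 32, and the log2 fold change was 1.07 (SE 0.32, q = 0.0133).

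*SLC25A34* had 31.8 ± 5.88 CPM in controls and 46.6 ± 4.59 CPM in NASH, without overlap (log2 fold change 0.55, SE 0.12, q = 0.00219). Its row was shared with *PLEKHM2*, 9 protein-coding genes away in the RefSeq annotation, so the source of the difference within the row cannot be told apart. *SLC25A43* had 4.84 ± 0.856 CPM in controls and 7.03 ± 0.996 CPM in NASH (log2 fold change 0.54, SE 0.14, q = 0.00525).

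*SLC25A46*, a protein of the outer membrane tied to fission and lipid transfer, had 10.8 to 13.7 CPM in 5 controls and 35.4 CPM in control 5, and 7.60 to 13.7 CPM in NASH. Its log2 fold change was -0.74 (SE 0.29, q = 0.0469). Without control 5 it was -0.36 (q = 0.0715). The call was also lost without control 31 or 45 or NASH animal 2, 9, 11, 20 or 41, where the log2 fold change was -0.78 to -0.67 and q was 0.0531 to 0.0909. *SLC25A35* had a log2 fold change of -0.13 (SE 0.16, q = 0.529), and *SLC25A53*, with 2 to 20 counts per control library and 23 to 48 per NASH library, had 0.79 (SE 0.33, q = 0.0606). *SLC25A53* was called higher with DESeq2 (q = 0.0348), with limma on rlog values (q = 0.0303), with every row of at least 1 count (q = 0.0411) and on library size alone (q = 0.00479).

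Related carriers with like substrates were then set against each other within each liver. In the log2 ratio of a pair's CPM the scaling of the library cancels except through the small prior count, which matters at low counts such as those of *SLC25A18*, and only its difference between groups was read, because its size also holds the lengths of the genes. The 10 pairs were chosen after the values had been seen. Their differences are therefore given as a description, with a standard error over animals and no test.

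The ratio of *SLC25A4* to *SLC25A5* was 3.40 to 3.83 in controls and 2.44 to 2.91 in NASH, a difference of -0.80 (SE 0.10) with no overlap. The ratio of *SLC25A25* to *SLC25A24* was 1.77 to 4.44 in controls and -1.11 to 1.06 in NASH, a difference of -3.50 (SE 0.51). The groups did not overlap, which *SLC25A25* on its own did. The difference was -2.70 (SE 0.56) for *SLC25A25* over *SLC25A23* and -0.80 (SE 0.18) for *SLC25A23* over *SLC25A24*, and of these 3 ratios any pair fixes the other.

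The ratio of *SLC25A12* to *SLC25A13* was higher in NASH by 0.97 (SE 0.26). The NASH livers kept within -5.89 to -5.55, and the controls ran from -7.24 to -5.51 with control 56 the highest. The other 5 differences were -0.43 (SE 0.73) for *SLC25A18* over *SLC25A22*, 0.02 (SE 0.42) for *SLC25A14* over *SLC25A30*, -0.10 (SE 0.17) for *SLC25A39* over *SLC25A40*, -0.21 (SE 0.25) for *SLC25A33* over *SLC25A36* and 0.35 (SE 0.35) for *SLC25A28* over *SLC25A37*. Each of these was within 2 standard errors of 0.

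**Figure D4:**
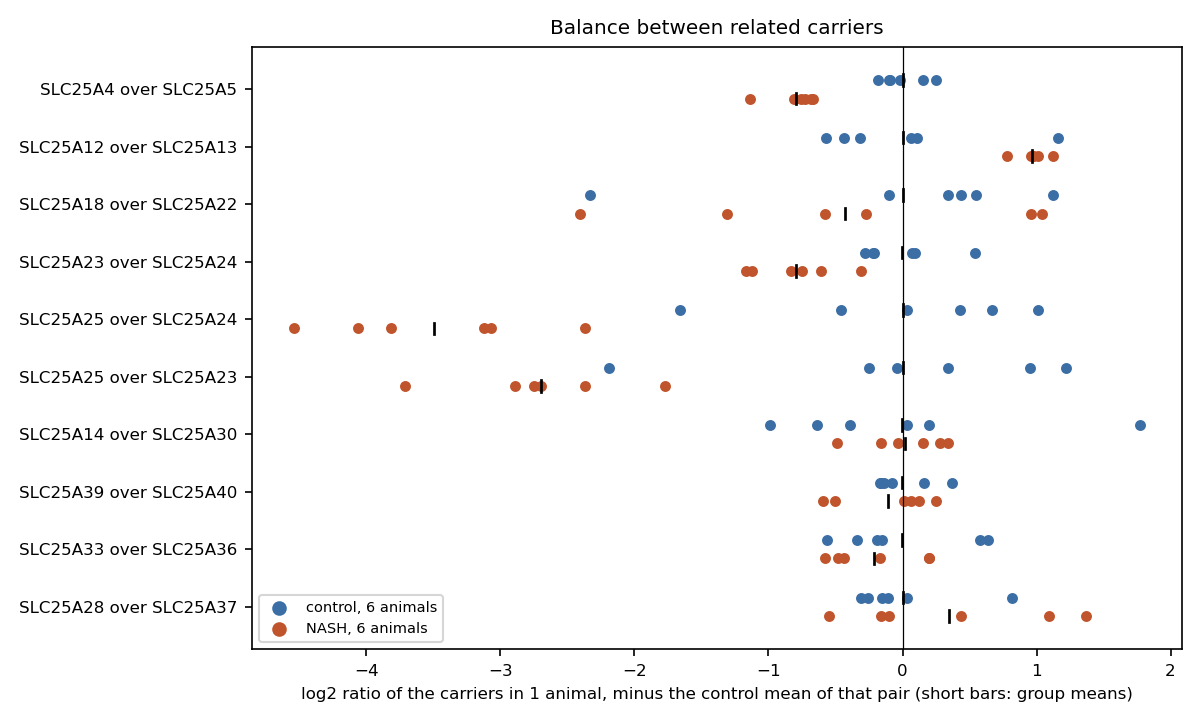
Log2 ratio of CPM of 10 pairs of related carriers in each of the 6 control and 6 NASH livers, shown relative to the control mean of the pair. NASH and control livers separate for *SLC25A4* over *SLC25A5*, *SLC25A23* over *SLC25A24* and *SLC25A25* over *SLC25A24*, and the NASH mean of the last is 3.50 below the controls.

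The carriers added up to 2290 to 2673 CPM in controls and 1557 to 1931 CPM in NASH, without overlap. As a plain share of all counts they took 0.194% to 0.223% in controls and 0.189% to 0.229% in NASH, which overlapped. The gap between the groups in the summed level was thus present with TMM and not on library size alone. The same held for all symbols together. With TMM their rows summed to 903000 to 977000 CPM in controls and 638000 to 716000 CPM in NASH. On library size alone they summed to 782000 to 794000 CPM and 782000 to 799000 CPM.

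Other mitochondrial transport proteins were examined as lists. Beside their counts stand 27.9% higher and 26.0% lower over all symbols with TMM, and 63.9% and 7.66% on library size alone. Of the pair that forms the mitochondrial pyruvate carrier, *MPC2* was lower (log2 fold change -1.34, q = 2.28e-07) and *MPC1* was at -0.59 (q = 0.182). Of 4 sideroflexins, which carry serine and other amino acids, *SFXN3* was higher, from 1.39 ± 0.543 to 13.8 ± 2.54 CPM (log2 fold change 3.30, q = 2.40e-07), and the other 3 were lower, *SFXN2* by most with -1.15. Without the factors 1 sideroflexin was higher and 2 were lower, and of the pyruvate carrier pair 0 were higher and 1 was lower. Of 8 genes of calcium uptake and release, 3 were higher, with *MCUR1*, a regulator of the uniporter, at 1.34, and 3 were lower, with the sodium/calcium exchanger *SLC8B1* at -0.97; without the factors 3 were higher and 1 was lower. Of 4 ABC transporters only *ABCB6*, a porphyrin transporter, differed (-0.53), and neither of the 2 measured porins did (*VDAC2* at 0.09, *VDAC3* at 0.01). Of *MTCH1* and *MTCH2*, family relatives in the outer membrane, *MTCH2* was lower (-0.35). Neither *ABCB6* nor *MTCH2* was called lower on library size alone, where both porins, 2 of the 4 ABC transporters and 1 of *MTCH1* and *MTCH2* were called higher.

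Of 10 genes of the machinery that imports the carriers, 1 was higher and 6 were lower with TMM, where 27.9% of all symbols were higher and 26.0% lower, and the median log2 fold change was -0.23. *TIMM10*, a chaperone of the intermembrane space, fell from 126 ± 17.9 CPM to 41.7 ± 13.0 CPM (log2 fold change -1.60, q = 2.14e-05) on a row shared with *SLC43A1*, whose reads cannot be told apart from its own, while *AGK*, a subunit of the inner membrane translocase, rose by 0.30 (q = 0.00985). On library size alone 6 of the 10 were higher and 1 was lower.

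Of the 6 enzymes that work with the carriers in shuttling NADH, 4 were lower and 1 was higher. Over all symbols 26.0% were lower and 27.9% higher. Cytosolic glycerol-3-phosphate dehydrogenase *GPD1* fell from 132 ± 19.5 to 46.2 ± 6.92 CPM (log2 fold change -1.51, q = 6.96e-07), and its mitochondrial partner *GPD2* rose from 20.8 ± 3.72 to 43.2 ± 5.77 CPM (1.05, q = 2.05e-05). Scaled by library size alone, 2 of the 6 were higher and 1 was lower. In the malate-aspartate shuttle, *MDH1* was at -0.48 (q = 0.000509), *MDH2* at -0.44 (q = 0.00137), *GOT1* at -0.79 (q = 0.00795) and *GOT2* at -0.22 (q = 0.0617).

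Other mitochondrial proteins, among them respiratory chain subunits and the outer membrane import proteins *TOMM20*, *TOMM22* and *TOMM40*, were set beside the carriers as a reference for the organelle's nuclear-encoded RNA. Of 18 measured, 8 were lower and 0 were higher, from *COX4I1* at -0.71 to *MFN2* at 0.16 (on a row shared with *MIIP*), with a median of -0.20. Without the factors 12 were higher and 1 was lower. Over all symbols 26.0% were lower and 27.9% higher with TMM, and 7.66% and 63.9% without the factors. The carriers spread further in both directions than this reference, but they held 39 rows against its 18. Their median was -0.07, that of the reference -0.20 and that of all symbols 0.01. A wide spread was not particular to the carriers, as the 4 sideroflexins ran from -1.15 to 3.30.

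**Figure D5:**
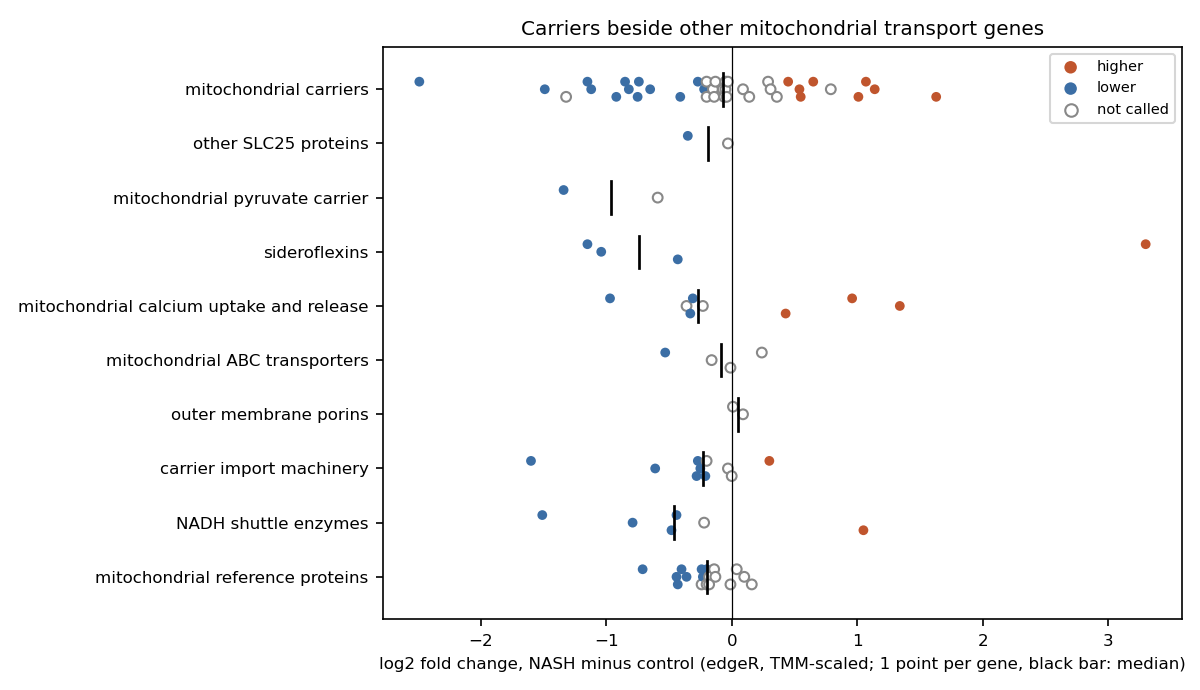
Log2 fold change (NASH minus control) of single genes in the carriers and in the lists of other mitochondrial genes, with a bar at each median. The carriers run from -2.49 to 1.63 around a median of -0.07, and the mitochondrial reference proteins from -0.71 to 0.16 around -0.20.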

How the data were processed

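Stranded mRNA libraries from the livers of 12 guinea pigs were sequenced as single reads. The authors trimmed reads with Trimmomatic 0.38.0, mapped them with HISAT2 2.1.0 to Cavpor3.0, ignored multimapped reads, assembled and quantified with StringTie 1.3.6, and deposited raw counts per locus. The authors also deposited log2 values (the rlog transformation of DESeq2) under human symbols. The count row of each symbol was found by repeating this transformation, which recovered all 11896 symbols.

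Counts were tested in R 4.3.3 with edgeR 4.0.16 (TMM, glmQLFit robust, glmQLFTest, group only). The standard error is the fold change over the square root of F. The log2 CPM of ratios had a prior count of 2. On simulated data with 200 of 11031 genes changed 4-fold, edgeR recovered 95.5%, and 5.91% of its calls were false. The changed genes were few and went up and down in equal numbers. In the livers 53.9% of symbols were called and the TMM factors moved with the groups, so the simulation does not test the scaling. The spread between animals is the error throughout. Members and lists were chosen with earlier results of these data known. The values of some members are not reported here. The other members were named, in most detail those called that changed by 0.8 or more on the log2 scale and the largest of each group. Of the lists of other genes the highest and lowest were named, and *MCM2*, *TOMM20*, *TOMM22*, *TOMM40*, *MDH1*, *MDH2*, *GOT1* and *GOT2* were added after their values were seen. Alternatives were RLE factors, library size alone, DESeq2 1.42.0, limma 3.58.1 on rlog values, other row filters, a threshold of 0.01 and each animal left out. Neighbouring genes came from RefSeq (mCavPor4.1), another build, so no coordinates are given.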

Additional observations from a re-analysis of the deposited data

Results flagged for a closer look

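In 8 of 78 checks of a carrier within a group, 1 animal stood apart: its gap to the nearest other animal, divided by the range of the group in log2 CPM, was above Dixon's critical value of 0.625 for 6 animals. Chance flags about 1 in 20 groups. Control 56 was lowest for *SLC25A13* (ratio 0.653, 92.4 CPM where the other controls had 167 to 228) and for *SLC25A18* (0.632, 0.269 CPM where the others had 1.54 to 3.87). Control 31 was lowest for *SLC25A38* (0.807, 7.36 CPM where the others had 14.5 to 17.1) and for *SLC25A37* (0.633, 55.6 CPM where the others had 95.9 to 132). Control 32 was highest for *SLC25A16* (0.722, 39.2 CPM where the others had 6.87 to 11.2) and for *SLC25A45* (0.681, 1.84 CPM where the others had 0.513 to 0.782). Control 5 was highest for *SLC25A46* (0.798, 35.4 CPM where the others had 10.8 to 13.7). NASH animal 65 was lowest for *SLC25A43* (0.690, 5.11 CPM where the others had 6.77 to 7.68). Controls made up 7 of the 8.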

How the results depend on the processing

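RLE factors, DESeq2, filterByExpr and counting each count row once kept the direction and call of all 21 called carriers. On library size alone all symbols gave 7603 higher and 911 lower, 21 carriers were higher and 8 lower, their median was 0.40 and their summed CPM was 2108 in controls and 2061 in NASH. The direction turned there for *SLC25A5* (0.44), *SLC25A3* (0.26), *SLC25A14* (0.42), *SLC25A30* (0.27), *SLC25A21* (0.27), *SLC25A13* (0.45), *SLC25A17* (0.43), *SLC25A26* (0.06), *SLC25A39* (0.32), *SLC25A40* (0.42), *SLC25A51* and *SLC25A52* (0.40), *SLC25A37* (0.33) and *SLC25A35* (0.34), as the removal of the factors raises every value. With every row of at least 1 count, which raised the median of all genes to 0.09, *SLC25A5* (0.05), *SLC25A14* (0.02), *SLC25A13* (0.06), *SLC25A17* (0.04), *SLC25A40* (0.03), *SLC25A51* and *SLC25A52* (0.02) turned and the calls of *SLC25A3*, *SLC25A15* and *SLC25A46* were lost; *SLC25A23* (0.39), *SLC25A38* (0.45) and *SLC25A53* (0.88) gained a call, which made 11 higher and 9 lower; the cause was not tested. With limma on rlog values *SLC25A13* was at 0.01 and the calls of *SLC25A15* and *SLC25A46* were lost. A threshold of 0.01 left 15 carriers, 6 higher and 9 lower. With each animal left out, 19 to 22 carriers were called, and only *SLC25A15*, *SLC25A33* and *SLC25A46* lost their call. A call was gained by *SLC25A18* without control 56 (-1.54) or NASH animal 9 (-1.69), by *SLC25A23* without control 31 (0.39) or 45 (0.38), and by *SLC25A53* without control 10 (0.94) or 45 (0.92) or NASH animal 9 (0.89). Carriers near 0 changed sign: *SLC25A5* (-0.10 to 0.02), *SLC25A14* (-0.11 to 0.04), *SLC25A27* (-0.18 to 0.45), *SLC25A13* (-0.16 to 0.04), *SLC25A16* (-0.29 to 0.76), *SLC25A51* and *SLC25A52* (-0.14 to 0.02), and the ratio of *SLC25A14* to *SLC25A30* (-0.18 to 0.37). The other 9 ratios kept their sign with each animal left out and with a prior count of 0.5. No paired analysis was possible because the groups share no animal number. Depth limits *SLC25A18*, *SLC25A27*, *SLC25A29*, *SLC25A45* and *SLC25A53*, where a floor of 3 counts corresponds to 0.0765 to 0.214 CPM.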
